A study of Mus musculus with 6 samples.

Results

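The genes described here encode the enzymes that cut Notch receptors and the proteins that remove them: the ADAM proteases Adam10 and Adam17, the gamma-secretase subunits Psen2, Ncstn, Aph1a and Psenen, and the turnover factors Numb and Fbxw7. They were chosen by name, 8 genes of the 47729 in a table of RNA-seq read counts, and each was found once in the table. All 8 passed the filter on low counts that left 15780 genes for testing.

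The table held 6 libraries, 2 in each of 3 groups, made from CD4 T cells of the mouse spleen. WT were mature naive cells of wild type mice, gated CD3+CD4+CD25-CD45RBhi and labelled as treated with doxycycline (Dox), with no duration given. ON were immature naive cells of RBPJind mice, gated CD3+CD4+CD25-CD45RBint, from mice given Dox in the water for 4 weeks, so that the cells matured while able to respond to Notch. OFF were cells of the same genotype and gate from mice whose Dox lasted 3 weeks and was withheld during a further 1 week, and the series' text calls them Notch unresponsive. All 3 groups carry the label Dox, and genotype and gate both differ between WT and the RBPJind groups. The promoter and the cell types that drive the induced RBPJ, the age of the mice, and whether samples of 1 group are from different mice are not stated in the labels, so the p-values cover no more than the spread of these 6 libraries, which may be technical.

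Notch receptors are single-pass proteins that furin cleaves on their way to the cell surface. Binding of a ligand on a neighbouring cell exposes a site that ADAM10, and in some settings ADAM17, cuts outside the membrane; gamma-secretase then cuts within the membrane and frees the intracellular domain, which moves to the nucleus and acts through RBPJ. Numb leads receptors into the endocytic route, and the ubiquitin ligase subunit FBXW7 marks the nuclear intracellular domain for destruction. In T cells Notch signals drive lineage choice in the thymus and shape activation in the periphery, and loss of FBXW7 function is known in T cell leukaemia.

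Rbpj was called higher in ON than in WT and OFF, and the promoters of the 8 genes were searched for the core of the RBPJ binding motif. RefSeq (GRCm38.p6) gave 14 promoter windows for the 8 genes, each of 300 bases, from 250 before to 50 after an annotated start. The letters GTGGGAA, on either strand, were in 2 of them, those of Aph1a and of a downstream start of Psen2. They are in 6.38% of all 32851 windows. The shorter TGGGAA, which lies within GTGGGAA, was in these and in a downstream start of Psenen, and is in 25.6% of all windows. No match was found in the windows of Adam10, Adam17, Ncstn, Numb or Fbxw7, which says only that these letters are not there. The 3 windows with a match are printed 5′ to 3′ on the strand of the gene, with the matched letters in capitals, to show where the letters lie. In Aph1a the match begins 4 bases before the start on the gene's own strand, in Psen2 it begins 89 bases before the start on the opposite strand, and in Psenen it begins 92 bases before the start on the gene's own strand. The windows are chr3:95893671-95893970 (+) for Aph1a, chr1:180245901-180246200 (-) for Psen2 and chr7:30563155-30563454 (-) for Psenen.
Aph1a: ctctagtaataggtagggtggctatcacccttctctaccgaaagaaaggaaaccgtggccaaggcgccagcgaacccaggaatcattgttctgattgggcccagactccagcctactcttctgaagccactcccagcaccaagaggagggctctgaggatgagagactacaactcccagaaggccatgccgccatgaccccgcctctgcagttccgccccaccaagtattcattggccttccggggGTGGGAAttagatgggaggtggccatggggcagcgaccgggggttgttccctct
Psen2: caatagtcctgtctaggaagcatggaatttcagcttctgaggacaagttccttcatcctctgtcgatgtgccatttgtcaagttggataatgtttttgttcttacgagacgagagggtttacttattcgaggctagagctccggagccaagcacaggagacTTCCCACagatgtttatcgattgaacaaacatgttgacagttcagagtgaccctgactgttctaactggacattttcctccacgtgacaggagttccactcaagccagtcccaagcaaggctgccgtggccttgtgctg
Psenen: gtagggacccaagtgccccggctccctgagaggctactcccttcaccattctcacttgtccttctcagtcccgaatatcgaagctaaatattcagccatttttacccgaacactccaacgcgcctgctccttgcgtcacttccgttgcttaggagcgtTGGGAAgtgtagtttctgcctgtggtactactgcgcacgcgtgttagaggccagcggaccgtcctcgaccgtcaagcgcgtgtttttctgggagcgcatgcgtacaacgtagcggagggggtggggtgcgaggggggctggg

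Counts assigned to genes ranged from 17025551 to 19319183 per library. As a check of the groups, Rbpj was at 98.2 and 79.6 CPM in the ON libraries, 29.8 and 31.7 in OFF, and 36.1 and 35.3 in WT, where CPM are read counts scaled to library size by edgeR's TMM factors. OFF lay 2.89-fold below ON for Rbpj and 3.10-fold below it for Dtx1, a Notch target (adjusted p = 0.00195 and 0.00234). Dtx1 was at 197.6 and 197.7 CPM in the WT libraries, 491.5 and 562.3 in ON and 194.7 and 144.8 in OFF. Between OFF and WT neither gene was called (edgeR adjusted p = 0.422 for Rbpj and 0.457 for Dtx1). Reads that did not align made up 9.34% and 14.8% of the table in ON and 18.8% to 24.3% in WT and OFF, and the number of genes with a count was between 24210 and 33138, without overlap between groups; the part of either in the results was not tested. The T cell markers Cd3d, Cd3e, Cd3g, Cd4, Trac and Thy1 summed to 2022 to 2923 CPM, with 0 of 6 called in any comparison. B cell markers summed to 27.4 to 34.2 CPM in WT, 187 to 217 in ON and 191 to 239 in OFF, with 4 of 6 called higher in ON than WT and 6 of 6 in OFF than WT. Regulatory T cell markers, Il2ra (the gene of CD25, which the gate excluded) among them, summed to 19.0 to 19.8, 134 to 209 and 188.6 to 354 in the same order. No gene of the 8 marker lists was at 0 in all libraries. In such sorted bulk samples, fewer cells of a type and less RNA per cell cannot be told apart.

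None of the 8 genes was called different between any groups by edgeR's quasi-likelihood test on all 6 libraries with Benjamini-Hochberg adjustment over 15780 genes and a call at an adjusted p under 0.05. For OFF, the cells that the series' text calls Notch unresponsive, against ON, 0 of 8 were called, where the background was 1.03% of all genes. For ON against WT 0 of 8 were called, beside 14.8%, and for OFF against WT 0 of 8, beside 6.83%. At an unadjusted p under 0.05 edgeR passed 0 of 8 in each comparison, beside 19.1%, 30.5% and 22.1% of all genes, and DESeq2 and limma-voom called 0 of 8 in each. A miss of the threshold does not show that levels were equal, so the interval of each difference is given below. Between OFF and ON the 95% intervals of all 8 genes lay between a log2 fold change of -0.62 and 0.43, that is from 1.54-fold lower to 1.35-fold higher. For ON against WT they ran from -0.48 to 0.72 (1.40-fold lower to 1.64-fold higher). For OFF against WT the limits were -0.39 and 0.58. The plot of fold changes shows these intervals, all of which include 0.

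**Figure D1:**
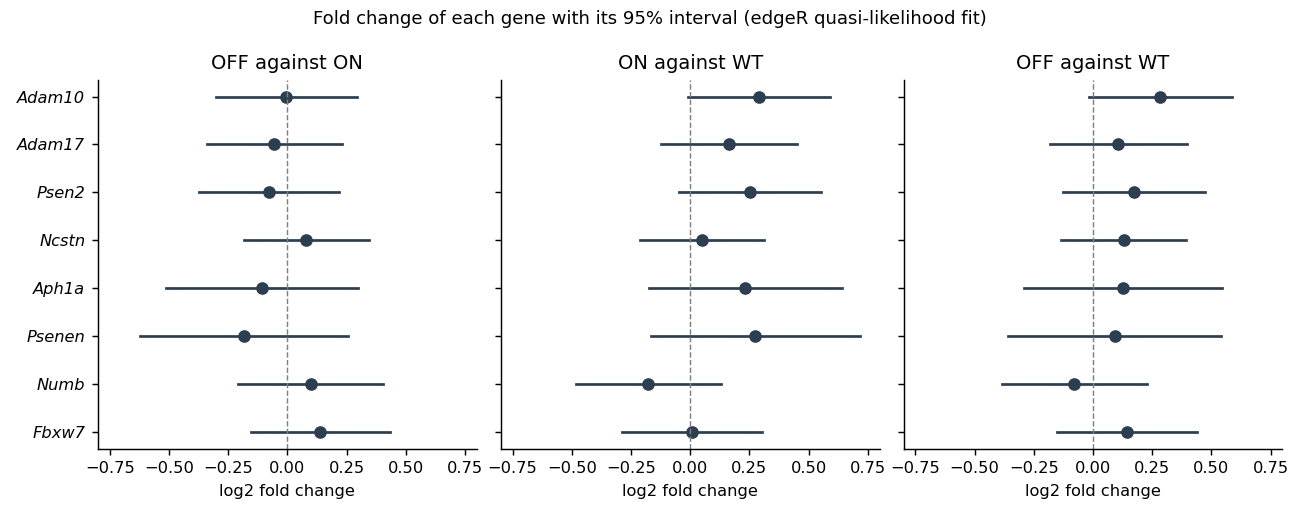
Log2 fold change (horizontal axis) of each of the 8 genes (vertical axis) in the 3 comparisons, as points with 95% intervals from the edgeR quasi-likelihood fit. Every interval crosses 0; that of Psenen is the widest in each comparison and spans -0.62 to 0.26 between OFF and ON.

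Adam10 (ENSMUSG00000054693; GRCm38 chromosome 9, 70678997 to 70780229, + strand) encodes the main protease for the outer cut of Notch. WT 1 and WT 2 held 90.0 and 84.1 CPM, ON 1 and ON 2 held 113 and 99.3, and OFF 1 and OFF 2 held 96.2 and 115.9. Both WT libraries were below all 4 RBPJind libraries, and ON and OFF overlapped. Mean levels were 87.0 ± 4.20 CPM for WT, 106 ± 9.94 for ON and 106 ± 13.9 for OFF (SD, n = 2). The log2 fold change was 0.29 ± 0.13 (SE) from WT to ON (adjusted p = 0.178), 0.28 ± 0.13 from WT to OFF (adjusted p = 0.252) and -0.00 ± 0.13 from ON to OFF (adjusted p = 0.990). The difference from WT was 1.22-fold in each RBPJind group, beside a 1.20-fold gap between the 2 OFF libraries. Both of these comparisons share the WT libraries.

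Adam17 (ENSMUSG00000052593; chromosome 12, 21323509 to 21373632, - strand) encodes the sheddase also known for releasing tumour necrosis factor. Its level was 50.1 and 57.3 CPM in the WT libraries, 59.2 and 60.9 in the ON libraries and 54.2 and 61.5 in the OFF libraries. The OFF libraries spanned the whole ON group and overlapped WT. The log2 fold change was 0.16 ± 0.13 from WT to ON (adjusted p = 0.428) and -0.06 ± 0.13 from ON to OFF (adjusted p = 0.852).

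Of the gamma-secretase subunits, Psen2 encodes a presenilin, the catalytic subunit, of which it is the member analysed here. Psen2 (ENSMUSG00000010609; chromosome 1, 180227004 to 180263438, - strand) was at 34.8 and 38.9 CPM in the WT libraries, 42.2 and 45.6 in the ON libraries and 38.8 and 44.3 in the OFF libraries. ON lay above WT, and OFF overlapped both. Its log2 fold change was 0.25 ± 0.13 from WT to ON (adjusted p = 0.236) and -0.08 ± 0.13 from ON to OFF (adjusted p = 0.790).

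Ncstn (ENSMUSG00000003458; chromosome 1, 172066013 to 172082795, - strand) encodes nicastrin, the subunit with the large outer domain that gates access of substrates. It varied least of the 8, with 42.0 and 42.7 CPM in the WT libraries, 42.8 and 44.8 in the ON libraries and 46.2 and 46.5 in the OFF libraries, a coefficient of variation of 4.37% over the 6 libraries. The groups did not overlap in any comparison, but the highest library was only 1.11-fold above the lowest. The log2 fold change from ON to OFF was 0.08 ± 0.12 (adjusted p = 0.749).

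Aph1a (ENSMUSG00000015750; chromosome 3, 95893969 to 95898288, + strand) encodes the scaffold subunit of the complex. Its level was 12.1 and 10.1 CPM in the WT libraries, 12.4 and 13.7 in the ON libraries and 11.4 and 12.9 in the OFF libraries. ON lay just above WT, and OFF overlapped both. The log2 fold change was 0.23 ± 0.18 from WT to ON (adjusted p = 0.426) and -0.11 ± 0.18 from ON to OFF (adjusted p = 0.789).

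Psenen (ENSMUSG00000036835; chromosome 7, 30561863 to 30563627, - strand) encodes PEN-2, the small subunit needed for presenilin to mature. It was at 17.5 and 14.6 CPM in the WT libraries, 18.8 and 20.0 in the ON libraries and 14.0 and 20.2 in the OFF libraries. The 2 OFF libraries were the lowest and the highest of all 6 and differed 1.44-fold, more than any 2 group means of the gene. The log2 fold change was 0.28 ± 0.20 from WT to ON (adjusted p = 0.381) and -0.18 ± 0.20 from ON to OFF (adjusted p = 0.649).

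Numb (ENSMUSG00000021224; chromosome 12, 83794034 to 83921934, - strand) encodes the endocytic adaptor. It was at 63.9 and 64.8 CPM in the WT libraries, 51.3 and 62.5 in the ON libraries and 65.0 and 56.8 in the OFF libraries. It was the only gene of the 8 whose mean was lower in ON than in WT, with a log2 fold change of -0.18 ± 0.14 (adjusted p = 0.417), and the 2 ON libraries differed 1.22-fold. From ON to OFF the value was 0.10 ± 0.14 (adjusted p = 0.738).

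Fbxw7 (ENSMUSG00000028086; chromosome 3, 84815268 to 84979198, + strand) encodes the substrate-binding subunit of an SCF ubiquitin ligase. It was at 55.4 and 57.0 CPM in the WT libraries, 52.1 and 60.8 in the ON libraries and 66.5 and 57.8 in the OFF libraries. ON spanned WT, and both OFF libraries lay above WT while overlapping ON. The log2 fold change was 0.14 ± 0.13 from ON to OFF (adjusted p = 0.603), 0.14 ± 0.13 from WT to OFF (adjusted p = 0.589) and 0.01 ± 0.13 from WT to ON (adjusted p = 0.983).

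**Figure D2:**
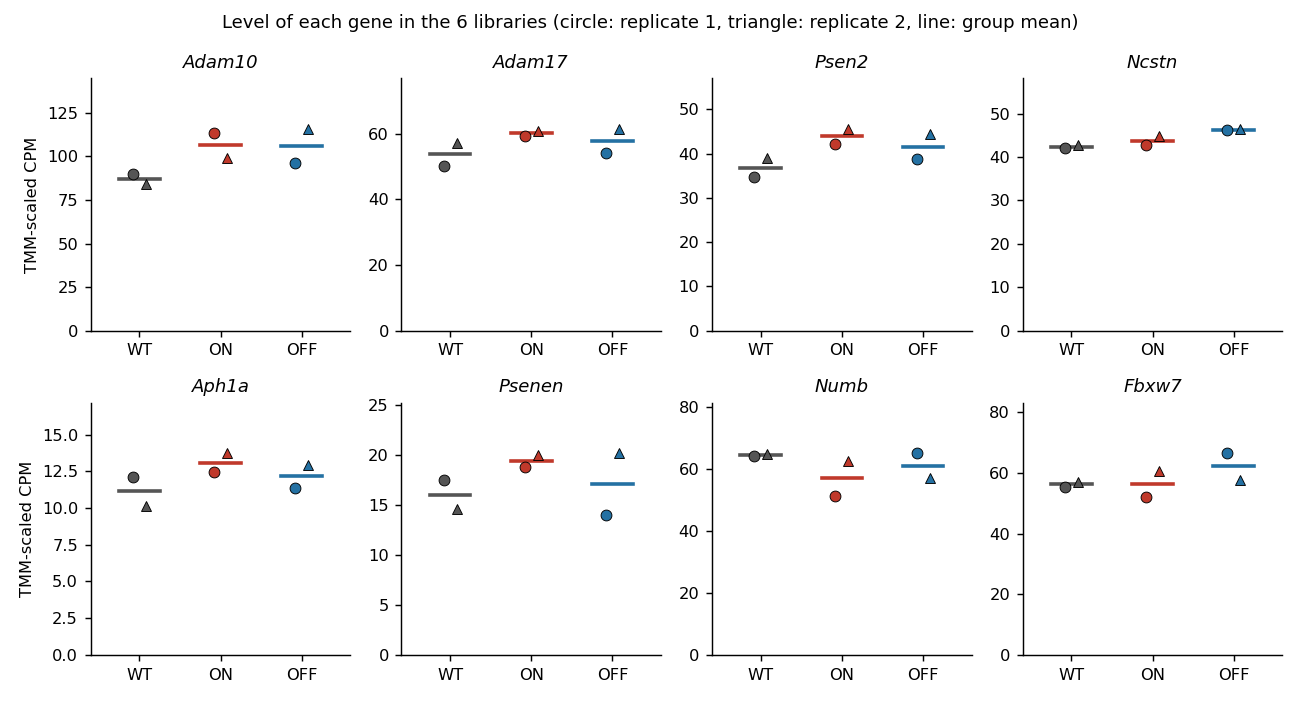
Level of each gene (vertical axis, TMM-scaled CPM from 0) in the WT, ON and OFF libraries; circles are replicate 1, triangles replicate 2 and lines group means. The 2 WT libraries of Adam10 lie below the other 4, at 84.1 and 90.0 CPM, and the OFF libraries of Psenen are 14.0 and 20.2.

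The remaining log2 fold changes from WT to OFF were 0.11 ± 0.13 for Adam17, 0.17 ± 0.13 for Psen2, 0.13 ± 0.12 for Ncstn, 0.13 ± 0.19 for Aph1a, 0.09 ± 0.20 for Psenen and -0.08 ± 0.14 for Numb, and that of Ncstn from WT to ON was 0.05 ± 0.12 (adjusted p from 0.511 to 0.851). The 95% interval of each included 0.

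Counted over the 8 genes, OFF and ON did not overlap for 1 gene, Ncstn (higher in OFF), where 46.7% of all genes tested did not overlap, 23.4% higher and 23.3% lower. ON and WT did not overlap for 7 genes, 6 higher in ON and Numb lower, beside 59.9% of all genes, 29.8% higher and 30% lower. OFF and WT did not overlap for 3 genes, Adam10, Ncstn and Fbxw7, each higher in OFF, beside 55.7% of all genes, 29.8% higher and 25.8% lower. The median log2 fold change of the 8 genes was -0.03 for OFF against ON (all genes 0.00), 0.20 for ON against WT (all genes -0.02) and 0.13 for OFF against WT (all genes 0.01). Over the tested genes with a mean of at least 10 CPM, which all 8 have, the medians were 0.02, 0.04 and 0.05 in the same order. In ON against WT 7 of 8 values were above 0, but with upper-quartile scaling Ncstn turned to -0.02 and Fbxw7 to -0.07, and with RLE scaling Fbxw7 was -0.00.

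The log2 range of the 3 group means ran from 0.13 for Ncstn to 0.29 for Adam10, beside a median of 0.31 over the 7941 tested genes with a mean of at least 10 CPM. Each of the 8 was below that median, with Adam10 at the 45.6th percentile and Ncstn at the 12.6th. Replicates of a group differed between 1.01-fold (Ncstn in OFF) and 1.44-fold (Psenen in OFF). Counting error alone was between 2.12% (Adam10, at 2218 reads) and 7.58% (Aph1a, at 174 reads). The OFF libraries of Psenen held 242 and 336 reads, and its counting error at 242 reads was 6.43%. Numb and Fbxw7 were both highest within their group in WT 2, ON 2 and OFF 1. Adam17 and Psen2 were highest in WT 2, ON 2 and OFF 2, and Aph1a and Psenen in WT 1, ON 2 and OFF 2. With 2 libraries a group this is a description of these libraries only.

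Compared per length, as CPM per kilobase of exon averaged over the 6 libraries, Adam10 was highest (20.3), followed by Numb (15.5), Psenen (13.7), Ncstn (11.1), Psen2 (9.41), Fbxw7 (8.27), Adam17 (7.99) and Aph1a (3.51). Adam10 was above Numb, Ncstn above Psen2 and Adam17 above Aph1a in 6 of 6 libraries. Numb against Psenen and Fbxw7 against Adam17 kept their order in 4 of 6 libraries, and Psenen against Ncstn and Psen2 against Fbxw7 in 5 of 6. The order of these neighbours thus varied between libraries, and a difference between genes was not tested. The order depends on the length used: with the longest transcript in place of all exons, Psenen came first (24.7), ahead of Adam10 (21.7) and Psen2 (20.2). Among the gamma-secretase subunits Aph1a was lowest per length by either measure. Its relatives Aph1b and Aph1c, which are near-identical copies of each other and therefore uncertain, stood 21.3-fold and 47.7-fold below Aph1a per length, with 6 to 30 and 4 to 11 reads per library. Numbl, the paralogue of Numb, was 41.6-fold below Numb. Adam19, an ADAM gene outside the 8, went from 5.13 CPM per kilobase in WT to 27.3 in ON and 15.5 in OFF, and so lay below Adam10 in WT and OFF (17.7 and 21.6) and above it in ON (21.6).

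**Figure D3:**
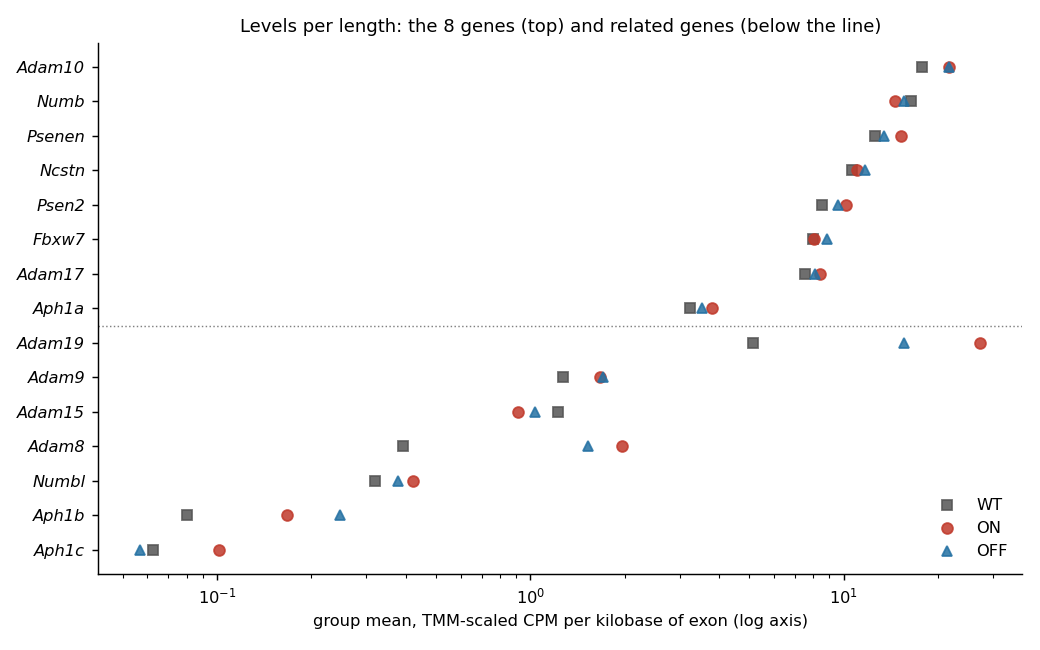
Group mean level per length (horizontal log axis, TMM-scaled CPM per kilobase of exon) of the 8 genes, in descending order, and of related genes below the dotted line; squares are WT, circles ON and triangles OFF. The 3 symbols lie close together for the 8 genes (17.7 to 21.6 for Adam10), while those of Adam19 run from 5.13 in WT to 27.3 in ON.

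Genes around the 8 were followed in 7 lists, whose counts stand beside the share of all genes called: 0.602% higher and 0.425% lower for OFF against ON, 9.68% and 5.16% for ON against WT, and 4.7% and 2.14% for OFF against WT. The levels of the lists are given in CPM, the most abundant gene of each was taken per length over the mean of the 6 libraries, and counts are those of edgeR unless another tool is named. The balance of higher and lower calls for OFF against ON depended on the genes and the fit: it was 95 higher and 67 lower here, 76 and 81 with a mean of at least 1 CPM, 19 and 39 with protein-coding genes only, and 249 and 370 without ON 1. In the list of other ADAM and convertase genes 8 of 11 were tested. Against WT, ON had 3 called higher and 0 lower, and OFF 3 higher and 1 lower, with medians of 0.37 and 0.22. For OFF against ON edgeR called 0 (2 lower at an unadjusted p under 0.05, median -0.19), while DESeq2 and limma-voom each called 1 lower, Adam19. Adam19, a metalloprotease of the same family, was at 41.7 and 31.3 CPM in the WT libraries, 207 and 181 in the ON libraries and 121.7 and 99.5 in the OFF libraries. It rose 5.32-fold from WT to ON (adjusted p = 6.42e-05) and 3.03-fold from WT to OFF (adjusted p = 8.97e-04), and both calls held in every alternative run. From ON to OFF its log2 fold change was -0.81 ± 0.16 (adjusted p = 0.0524). Furin, the convertase that makes the first cut in Notch, read 39.0 and 41.9 CPM in the WT libraries, 66.2 and 61.3 in the ON libraries and 64.5 and 59.6 in the OFF libraries. Both RBPJind groups lay above WT and overlapped each other. It rose 1.58-fold from WT to ON (adjusted p = 0.00853) and 1.53-fold from WT to OFF (adjusted p = 0.0192), with a log2 fold change of -0.04 ± 0.12 from ON to OFF (adjusted p = 0.892). The call of Furin in ON was lost without WT 1 or WT 2 (adjusted p up to 0.115) and that in OFF in 5 of 17 alternatives, those without WT 1, WT 2, OFF 1 or OFF 2 among them (up to 0.2097). Adam8, an ADAM gene of leukocytes, rose 4.95-fold from WT to ON (adjusted p = 0.0113, lost without WT 1 or WT 2, up to 0.104) and 3.85-fold from WT to OFF (adjusted p = 0.0424, lost in 8 of 17 alternatives, those without WT 1, WT 2 or OFF 2 among them, up to 0.264). Myeloid and dendritic markers, which moved in the same direction, summed to 14.9 to 15.8 CPM in WT, 39.0 to 44.7 in ON and 32.8 to 47.8 in OFF (3 of 6 tested called higher in ON and 2 in OFF), and B cell markers as given above; their part in these differences was not tested. Pcsk5, a convertase, was counted 33 times in WT and 1 time in OFF, a ratio of 33.0 with a 95% counting interval of 5.53 to 1344 (adjusted p = 0.0302, lost without WT 1, WT 2, OFF 1 or OFF 2, up to 0.197).

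Partners and inhibitors of the ADAM proteases, such as the iRhom genes and the tetraspanins that carry ADAM10 to the surface, had 7 of 13 tested and 0 called in any comparison by edgeR, DESeq2 or limma-voom (0 by edgeR at an unadjusted p under 0.05). Their medians were 0.14 for OFF against ON, -0.05 for ON against WT and 0.26 for OFF against WT. The most abundant, Frmd8, a partner of the iRhoms, averaged 136 CPM in WT, against 114.9 in ON and 123 in OFF. Tspan14, a tetraspanin partner of ADAM10, had 56.5, 48.1 and 55.1.

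Of the partners and relatives of gamma-secretase 9 of 11 were tested, with medians of 0.13 for OFF against ON, 0.26 for ON against WT and 0.10 for OFF against WT. OFF against ON had 0 called by edgeR, DESeq2 and limma-voom (1 higher by edgeR at an unadjusted p under 0.05), ON against WT 0 higher (DESeq2 1, Ifitm3) and 1 lower, and OFF against WT 1 higher and 0 lower. Sppl3, an intramembrane protease related to presenilins, was at 41.7 and 44.2 CPM in the WT libraries, 29.2 and 29.4 in the ON libraries and 41.4 and 44.5 in the OFF libraries. ON lay below both other groups, which overlapped. It fell 1.47-fold from WT to ON (adjusted p = 0.0184, lost in 4 of 16 alternatives, those without WT 1, WT 2 or ON 2 among them, up to 0.203), and from ON to OFF its log2 fold change was 0.55 ± 0.12 (adjusted p = 0.0701). Ifitm3, an interferon-induced membrane protein, rose 5.87-fold from WT to OFF (adjusted p = 0.0378), from a mean of 0.647 CPM to 3.86; the call ended in 6 of 17 alternatives, those without WT 1, WT 2 or OFF 2 among them (up to 0.226). The most abundant gene of the list was Tmed2, a cargo receptor of the secretory route, with mean levels of 94.3 (WT), 112.8 (ON) and 96.3 CPM (OFF) and no call.

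Among genes of endocytosis and receptor ubiquitination 38 of 39 were tested. For OFF against ON edgeR and limma-voom called 0 higher and 1 lower, Dtx1, and DESeq2 also 2 higher, Mib1 and Neurl3 (8 higher and 3 lower by edgeR at an unadjusted p under 0.05, median 0.08). For ON against WT 4 were higher and 2 lower (median -0.07), and for OFF against WT 2 were higher and 0 lower (median 0.04). Dtx1, which encodes Deltex 1, was 2.67-fold higher in ON than in WT (adjusted p = 6.58e-04). Neurl1b, a ligase gene of the Neuralized family, rose 5.82-fold from WT to ON (adjusted p = 0.00942) and 5.65-fold from WT to OFF (adjusted p = 0.0192), from a mean of 0.944 CPM to 5.54 and 5.37. Ndfip1, an adaptor that activates Nedd4-family ligases such as Itch, rose 1.49-fold from WT to ON (adjusted p = 0.0164), from 91.3 and 88.6 CPM to 139 and 129. Nedd4l, a ligase of that family, fell 1.54-fold (adjusted p = 0.0152), from 39.0 and 37.4 CPM to 25.2 and 24.5, and stood at 37.7 and 33.0 in OFF. The other calls were Ap2m1 (higher) and Usp10 (lower) in ON and Neurl3 (higher) in OFF. The calls of Neurl1b, Ndfip1 and Nedd4l in ON were lost without WT 1 or WT 2 (up to 0.0876, 0.154 and 0.145), and that of Neurl1b in OFF without WT 1, WT 2 or OFF 2 (up to 0.123). The calls of Ap2m1, Usp10 and Neurl3 were lost in 5 of 16, 11 of 16 and 7 of 17 alternatives, each of them without WT 1 or WT 2 (up to 0.257, 0.333 and 0.245). Dnm2, the gene of the endocytic GTPase dynamin 2, was the most abundant of the list over the 6 libraries, though in ON Dtx1 was higher (99.99 against 63.2 CPM per kilobase). It averaged 308 CPM across the WT libraries, 337 across ON and 297 across OFF and was not called. Itch, a ligase that works with Numb, averaged 113.9 CPM across the WT libraries, 98.6 across ON and 104 across OFF and was not called either.

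In the list for nuclear degradation of the intracellular domain, which holds the ligase core, Mediator kinase and GSK3 genes around Fbxw7, all 14 genes were tested. For OFF against ON edgeR and limma-voom called 0 and DESeq2 1 higher, the kinase gene Gsk3b (2 higher by edgeR at an unadjusted p under 0.05, median 0.22). For OFF against WT the 3 tools called 0 (1 higher and 1 lower by edgeR unadjusted, median 0.01). For ON against WT 1 was lower (median -0.22), Usp28, a deubiquitinase that opposes Fbxw7. It was at 76.3 and 72.3 CPM in the WT libraries, 30.4 and 47.8 in the ON libraries and 59.1 and 47.7 in the OFF libraries. Every RBPJind library lay below WT, and ON and OFF overlapped. Skp1a, an adaptor subunit of the same ligases and the most abundant of the list per length, averaged 109.7 CPM across the WT libraries, 124 across ON and 119 across OFF, without a call. The fall of Usp28 from WT to ON was 1.90-fold (adjusted p = 0.0163, lost without WT 1 or WT 2, up to 0.109), and its log2 fold change from ON to OFF was 0.45 ± 0.20 (adjusted p = 0.263).

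Proteins that FBXW7 is known to mark were read as transcripts, of which 14 of 15 were tested; the transcript says nothing of the protein's stability. For OFF against ON edgeR and limma-voom called 0 and DESeq2 1 higher, Klf2 (2 higher and 1 lower by edgeR at an unadjusted p under 0.05, median 0.08). For ON against WT 4 were higher and 1 lower (median 0.13), and for OFF against WT 2 higher and 0 lower (median 0.26). Aurka, a mitotic kinase, rose 5.41-fold from WT to ON (adjusted p = 0.00272), a call that held in every alternative run, and 3.39-fold from WT to OFF (adjusted p = 0.0241, lost in 4 of 17 alternatives, those without WT 1, WT 2 or OFF 2 among them, up to 0.129). The cyclin E genes Ccne1 and Ccne2 rose 2.50-fold and 7.02-fold from WT to ON (adjusted p = 0.0188 and 0.0222, each lost without WT 1, WT 2 or ON 1, up to 0.128 and 0.158). Nfkb2, an NF-kB subunit gene, rose 1.69-fold in ON (adjusted p = 0.00837, lost without WT 1, 0.114), and Klf2, a regulator of naive T cell homing, fell 1.51-fold (adjusted p = 0.0118, lost without WT 1 or WT 2, up to 0.158). Klf2 was the most abundant of the list over the 6 libraries, though in ON it was below Mcl1 (97.2 against 113 CPM per kilobase). Gata3, a lineage factor of type 2 helper T cells, rose 1.40-fold from WT to OFF (adjusted p = 0.0471), a call lost in 10 of 17 alternatives, those without WT 1, WT 2 or OFF 2 among them (up to 0.338).

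Of 17 proteins known to be shed by ADAM10 or ADAM17, 14 transcripts were tested. For ON against WT 6 were called higher and 2 lower, and for OFF against WT 5 higher and 0 lower by edgeR (DESeq2 1 lower, Il6ra; limma-voom 0; 2 lower by edgeR at an unadjusted p under 0.05), with medians of 0.46 and 0.30 beside -0.02 and 0.01 over all genes. For OFF against ON 0 were higher and 1 lower (median 0.14). Lag3, an inhibitory receptor, was at 0.538 and 1.16 CPM in the WT libraries, 39.2 and 27.8 in the ON libraries and 20.4 and 29.0 in the OFF libraries. It rose 38.9-fold from WT to ON (adjusted p = 5.24e-05) and 28.6-fold from WT to OFF (adjusted p = 1.73e-04), in every alternative run. Havcr2, which encodes the inhibitory receptor TIM-3, was at 0.897 and 0.581 CPM in the WT libraries, 26.9 and 16.5 in the ON libraries and 5.03 and 9.13 in the OFF libraries. It rose 29.1-fold from WT to ON (adjusted p = 2.76e-04) and 9.50-fold from WT to OFF (adjusted p = 0.00618, lost without WT 2, 0.0577). Havcr2 was the only transcript of the list that edgeR called between OFF and ON, 3.07-fold lower in OFF (adjusted p = 0.0481). That call was lost in 11 of 17 alternatives, those without WT 1, WT 2, ON 1 or OFF 1 among them (up to 0.174); the WT libraries enter it only through filter, scaling and spread. Tnfrsf1b, a tumour necrosis factor receptor gene, rose 2.58-fold in ON (adjusted p = 0.00222) and 2.35-fold in OFF (adjusted p = 0.00568, lost without WT 1 or WT 2, up to 0.0580). Il6ra, the interleukin 6 receptor gene, fell 1.84-fold in ON (adjusted p = 0.0119, lost without WT 1 or WT 2, up to 0.0977), from 272 and 266 CPM to 121 and 171, and its log2 fold change from WT to OFF was -0.56 ± 0.18 (adjusted p = 0.0949). Cd44, an adhesion receptor of activated T cells, rose 1.67-fold in ON (adjusted p = 0.0397, lost in 7 of 16 alternatives, those without WT 1, WT 2, ON 1 or ON 2 among them, up to 0.272) and 1.99-fold in OFF (adjusted p = 0.0231, lost without WT 2 or OFF 2, up to 0.131). Notch1 itself, in this list and the previous, averaged 288 CPM across the WT libraries, 344 across ON and 345 across OFF and was not called (adjusted p = 0.257 for ON against WT and 0.984 for OFF against ON). Regulatory T cell markers were called higher for 4 of 4 in both RBPJind groups against WT, as were Lag3, Havcr2, Tnfrsf1b and Cd44. Il6ra went the other way in ON. Between OFF and ON 0 of 4 of these markers were called. Their sum was 134 to 209 CPM in ON and 188.6 to 354 in OFF, while Havcr2 was lower in OFF. CD8 T cell markers summed to 13.8 to 14.4 CPM for WT, 18.1 to 23.7 for ON and 14.2 to 18.0 for OFF, so OFF overlapped WT. Against WT, 1 of these 2 was called higher in each RBPJind group. NK cell markers summed to 4.13 to 9.63 CPM for WT, 2.48 to 3.22 for ON and 3.41 to 6.73 for OFF, with 0 of 3 called. The part of these marker lists was not tested.

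**Figure D4:**
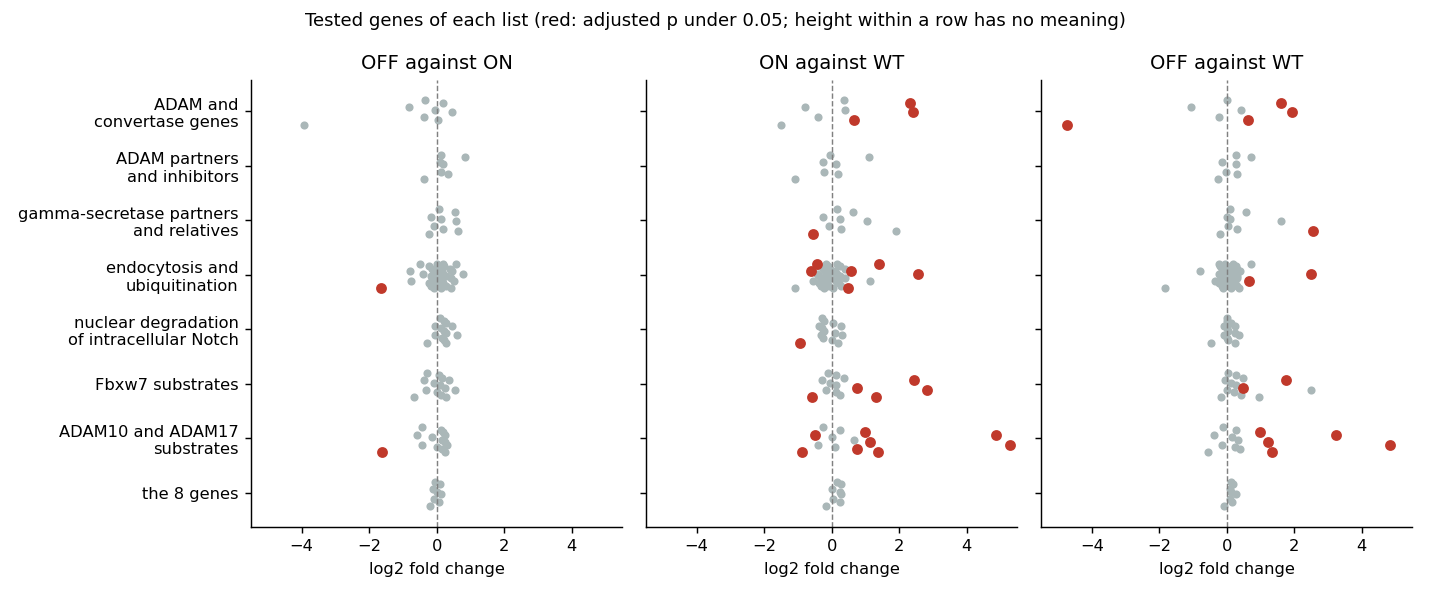
Fitted log2 fold change (horizontal axis) of every tested gene of the 7 lists and of the 8 genes (rows) in the 3 comparisons; red points passed an adjusted p under 0.05 and grey did not. The 8 genes in the bottom row stay between -0.18 and 0.29 with 0 red points, while other ADAM genes and shed receptors reach beyond a log2 fold change of 2 against WT; the lowest red point, Pcsk5, rests on 1 count in OFF.

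The genes whose pattern over the 6 libraries was most like each of the 8 were taken from 7620 other protein-coding genes with a mean of at least 10 CPM, by the distance between log2 CPM centred on the gene's own mean. Adam10 was nearest to Ankrd40, Ppp1ca (distance 0.0680) and Eif5a, where the median gene lay 0.572 away. A level equal in all 6 libraries would lie 0.407 from Adam10. For the 8 genes this distance ran from 0.141 (Ncstn) to 0.512 (Psenen). Each was below the distance of the median gene from the same gene, which was 0.439 for Ncstn and 0.663 for Psenen. How far the median gene itself lies from an equal level was not computed. The nearest to Adam17 was Taf6 (0.0507), to Psen2 Polk (0.0705), to Ncstn Cnp (0.0551), to Aph1a Tmem154 (0.0758) and to Psenen Pebp1 (0.143). Numb was nearest to Prkcq (0.0710), the gene of the T cell kinase PKC theta, and Fbxw7 to Hsh2d (0.0661), Gon4l and Sufu. These are given as a description of 6 libraries, with no test.

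Overlapping genes limit some of these counts, since the strand setting of the counting is not given. Exons of Aph1a share 12.9% of their bases with genes of the opposite strand, those of Psenen 9.33%, Ncstn 4.91%, Adam17 4.35% and Numb 4.24%; Adam10, Psen2 and Fbxw7 share none. The partner of Ncstn, Copa, averaged 20.2 to 25.4 CPM per kilobase over the groups, beside 10.6 to 11.7 for Ncstn, and that of Aph1a, Car14, had means of 0.0901 to 0.255 CPM.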

How the data were processed

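RNA of 6 libraries of sorted spleen CD4 T cells was sequenced on a NovaSeq instrument and aligned to GRCm38, per the labels' protocols. R 3.6.2 and edgeR are listed in the submitters' processing notes; for aligner, counter, strand setting and annotation release the sources used here give nothing. The deposited values are raw counts per Ensembl gene, with no normalization. The table's 5 summary rows of unassigned reads stayed out of library sizes and tests; 33.7% to 46.9% of the reads in the table were assigned to genes. Symbols, positions and exon lengths came from GENCODE mouse release 21 (GRCm38), which matched 47310 of 47729 identifiers.

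Genes were kept by filterByExpr (minimum count 10, minimum total 15), scaled by TMM and fitted with edgeR 4.0.16 (quasi-likelihood, robust, R 4.3.3), all 6 libraries in 1 fit without intercept or block, with 3 residual degrees of freedom. SE is the log2 fold change divided by the root of its F statistic, and intervals are 95%. limma 3.58.1 and DESeq2 1.42.0 gave alternatives. The script was tested on simulated counts. Levels per length are CPM per kilobase of the union of exons.

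The 8 genes and the 7 lists were chosen with earlier results of these data known. The list gene Hm13 was not found under that symbol. The most abundant gene of 1 list is not reported here. Named genes were the 8, Rbpj, Notch1 and Dtx1, the 3 genes most like each of the 8, and of each list the most abundant gene per length and up to 4 called genes a comparison by smallest p; Ap2m1, Usp10, Ccne2, Tspan14, Itch, Copa, Car14, Gsk3b, Mib1, Mcl1, Numbl, Aph1b and Aph1c fall outside it and were chosen with their values known. Replicate numbers are not taken as pairs.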

Additional observations from a re-analysis of the deposited data

How the results depend on the processing

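None of the 8 genes was called in any of the 17 alternatives for OFF against ON, 16 for ON against WT or 17 for OFF against WT. These were other scalings, filters and tests, fits of the 2 groups alone, a block on replicate number and fits without each library, plus protein-coding genes only and a crossed block, both added after seeing the data. The lowest adjusted p among them was 0.0785, for Adam10 between OFF and WT. Of the 24 fold changes 15 kept their sign in every alternative. The number of all genes called moved more. Between OFF and ON it was 162, and 497 with DESeq2, 58 with only the 2 groups compared, 58 with protein-coding genes only and 67 to 619 without single libraries. Between ON and WT it was 2342 (1527 higher and 815 lower, or 1272 and 1091 with upper-quartile scaling), and 368 to 2397 without single libraries. Between OFF and WT it was 1078, and 584 with limma-voom and 223 to 1602 without single libraries. The cause was not tested, except that a group left with 1 library has fewer samples; the fit then gives that library the spread of the rest. Replicates share only a number: same-numbered deviations correlated at -0.27 (OFF and ON), 0.09 (ON and WT) and -0.25 (OFF and WT). With the replicate block 60, 1441 and 663 genes were called, and with the crossed replicate block 1656 between OFF and ON and 2864 between OFF and WT. The block also ended the call of Furin for OFF against WT. The counting error of the 8 genes was 2.12% to 7.58%, and whether depth limits their calls was not tested.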
